A study of Mus musculus with 12 samples.

Results

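The 12699 annotated repeat loci of structural, non-coding RNA type are described here, out of 4929385 loci in the deposited repeat table. They were chosen by family name alone, as every row whose family is exactly tRNA, srpRNA, scRNA, rRNA or RNA. The tRNA family held 2749 loci, srpRNA (7SL RNA and its copies) 421, scRNA (small cytoplasmic RNA and its copies) 8348 and rRNA 1181. No row carried the family name RNA, so that name has 0 members. At least 1 read was present at 1403 tRNA, 234 srpRNA, 3896 scRNA and 19 rRNA loci. A mean of at least 10 reads over the 6 libraries was reached by 424, 77, 943 and 1 locus in the same order, and these 1445 loci were tested one by one. Just inside that minimum lay tRNA, srpRNA and scRNA loci with a mean of 10.0 reads, and just outside it loci with 9.83.

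RNA polymerase III makes tRNAs, the 7SL RNA, the Y RNAs and BC1 from short genes, several of which carry their promoter inside the transcribed sequence. The 7SL RNA is the scaffold of the signal recognition particle, which brings ribosomes making secreted or membrane proteins to the endoplasmic reticulum. Y RNAs bind the Ro60 protein and take part in RNA quality control, and BC1 is a rodent RNA of neurons and germ cells that dampens translation. All these genes have left many retroposed copies in the mouse genome, and SINE families such as B1, B2 and ID descend from 7SL RNA or tRNA-like RNAs. N6-methyladenosine (m6A) is a base modification laid down mainly on RNA polymerase II transcripts, and ALKBH5 is an enzyme that removes it.

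The study measured m6A in RNA of the chromatin-associated fraction of E14TG2a cells, a mouse embryonic stem cell line. Cells were Alkbh5 knockout (KO), Alkbh5 with its cIDR, an intrinsically disordered region, deleted (ΔcIDR), or wild type (WT), all in the same medium with LIF, PD0325901 and CHIR99021. Each group had 2 libraries read as antibody-enriched, 6 in all, after depletion of ribosomal RNA. The column names do not say whether a library was enriched or input, the ΔcIDR columns are named KI and were assigned by elimination, and both KO columns carry the name KO6, which the labels do not explain, so both may stem from 1 line. No input column was available to these comparisons, so a difference can lie in m6A, in the amount of RNA or in gene copies, and these cannot be told apart. In bulk RNA, fewer cells with an RNA and less of it per cell cannot be told apart either. Nothing states that replicates were separate cultures, so p-values rest only on the spread between these libraries. The fits draw that spread in part from all tested loci or families, so a p-value does not measure the spread of 1 locus or family alone. The tables hold no gene names, and neither Alkbh5 nor markers of stem cells were analysed here.

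One member is shown by its sequence, because BC1 is the scRNA gene whose start RefSeq sequences cover and because it shows how a tRNA-like internal promoter element sits inside such a locus. The first 50 bases of Bc1 are given 5′ to 3′ from RefSeq on GRCm38.p6, chr7:144914470-144914519, plus strand, with capitals for the match to the polymerase III A box at positions 14 to 24 from the start of the RNA.
Bc1: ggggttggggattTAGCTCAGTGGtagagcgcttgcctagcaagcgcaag
The A box was searched on both strands and occurred in 1183 of 32851 windows of that length at the starts of RefSeq genes, or 3.60%. In the repeat table, on GRCm39, a single scRNA locus of chromosome 7 has the 154 bp of Bc1, chr7:144468207-144468360. It held 5 and 2 reads in KO, 6 and 5 in ΔcIDR, and 8 and 5 in WT, so BC1 was near the floor in every library and was not tested.

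Repeat loci took 20922839 to 26267351 reads per library, and the members 0.416% to 0.491% of them. The deposited signal is reads multiplied by 1 factor per library that rests on the m6A-carrying spike-in, which took 814 to 1870 reads. On that scale the median tested repeat locus differed by -0.28 (log2) between KO and WT, by 0.33 between ΔcIDR and WT, and by 0.60 between ΔcIDR and KO, and the 2 KO libraries stood at -0.02 and -0.56 relative to the mean of all 6. Each comparison was therefore fitted on the deposited scale, which is the main result, and on a relative scale, with each library centred on its median tested locus. Levels are given as RPM, here counted over repeat reads, which are not divided by length. Loci with few reads carry a large counting error, and reads of near-identical copies could have been shared between loci, since the rule for multiply mapped reads is not given in the sources used here.

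srpRNA and scRNA held most of the members' reads, with 216805 and 260566 over all libraries, against 116804 for tRNA and 2479 for rRNA. tRNA loci summed to 931.8 and 871.9 RPM in KO, 814.1 and 901.3 RPM in ΔcIDR, and 825.8 and 792.5 RPM in WT. srpRNA loci summed to 1339 and 1360 RPM in KO, 1675 and 2063 RPM in ΔcIDR, and 1654 and 1552 RPM in WT. scRNA loci summed to 1996.0 and 1910.5 RPM in KO, 1834 and 1927 RPM in ΔcIDR, and 1932 and 1880 RPM in WT. srpRNA was thus low in both KO libraries and high in both ΔcIDR libraries relative to WT, with no overlap between groups, while the ΔcIDR libraries overlapped the WT range for tRNA and scRNA. KO tRNA lay above WT in both libraries.

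**Figure D1:**
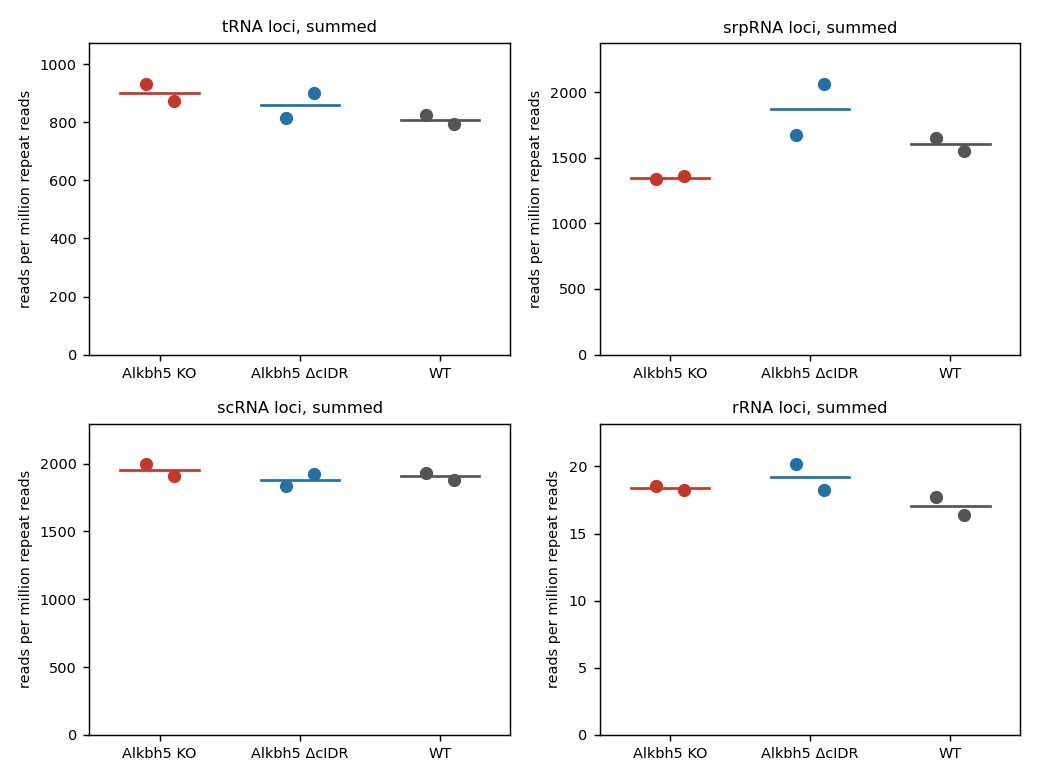
RPM, over repeat reads, summed over the loci of each family, 1 point per library and a line at the mean of 2, for KO, ΔcIDR and WT. srpRNA averaged 1349.5 ± 14.8 RPM in KO, 1869 ± 274 in ΔcIDR and 1603 ± 72.3 in WT (SD, n = 2), and the other families show smaller gaps between groups.

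srpRNA was the single member family whose sum passed the limma test at an adjusted p of 0.05 on the deposited or the relative scale. srpRNA fell by 0.29 ± 0.07 (log2, SE) in KO against WT on the relative scale (adjusted p = 0.0013), where 7.69% of 52 families were called. It rose by 0.29 ± 0.07 in ΔcIDR against WT (adjusted p = 0.0012; 11.5% of families called) and by 0.59 ± 0.07 in ΔcIDR against KO (adjusted p = 1.6e-12; 30.8% called). These SEs and p-values draw on the spread of all 52 families. The 2 loci described below, with 89.3% of srpRNA reads, had SEs from their own libraries of 0.05, 0.16 and 0.15 in the same order. For both ΔcIDR comparisons the family SE is thus smaller than that of its main loci. On the deposited scale srpRNA rose by 1.19 ± 0.30 in ΔcIDR against KO (adjusted p = 0.0039), one of the 13.5% of families called there, against a difference of 0.60 for the median tested locus. That call was lost without either ΔcIDR library or either WT library. There the difference from WT was -0.57 ± 0.30 in KO (adjusted p = 0.69) and 0.63 ± 0.30 in ΔcIDR (adjusted p = 0.43), and 0% of families were called in either comparison, with 1 and 4 families at an unadjusted p under 0.05. On the relative scale the KO call was lost when either KO library or WT replicate 1 was left out, and the call of ΔcIDR against WT was lost without either KO library, ΔcIDR replicate 2 or WT replicate 2. On a scale set by reads of ERCC RNA, srpRNA differed by -0.028 in ΔcIDR against WT, and on a scale set by the unmodified spike-in it differed by -0.55 in ΔcIDR against WT and by -0.20 in ΔcIDR against KO, so those directions depend on the scale.

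A pair of loci carried this family. They are 300 bp each, at chr12:69206069-69206368 and chr12:69407956-69408255 (GRCm39), and held 89.3% of all srpRNA reads. RefSeq's 7SL genes Rn7s1 and Rn7s2 also lie on chromosome 12, 299 bp long, with starts 201888 bp apart, where the table's pair is 201887 bp apart. The match was made by chromosome, length and spacing, since the annotation at hand is of another build. Their reads per base were 194 and 401 times those of the repeat loci within 10 kb. The pair are near-identical genes, so how reads were split between them is uncertain, and their sum is the safer value.

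The 2 long 7SL loci together had 1174 and 1194 RPM in KO, 1509 and 1877 RPM in ΔcIDR, and 1482 and 1383 RPM in WT. Both KO libraries lay below every other library, and both ΔcIDR libraries above both WT libraries. The relative difference of the sum was -0.32 ± 0.05 (log2, SE from the 2 libraries per group) in KO against WT, 0.31 ± 0.16 in ΔcIDR against WT and 0.63 ± 0.15 in ΔcIDR against KO. As single loci, the first had 589 and 607 RPM in KO, 770 and 969 RPM in ΔcIDR, and 737 and 669 RPM in WT, and the second 585 and 587 RPM, 740 and 907 RPM, and 745 and 714 RPM in the same groups. In the second, ΔcIDR replicate 1 overlapped WT. The second fell by 0.36 ± 0.09 in KO against WT on the relative scale (adjusted p = 0.014), while the first differed by -0.28 ± 0.09 (adjusted p = 0.080). Both rose in ΔcIDR against KO, on the relative scale (0.66 and 0.61) and on the deposited scale (1.26 and 1.22, adjusted p = 0.0015 and 0.0023).

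The other 419 srpRNA loci had a median length of 76 bp. They summed to 164.7 and 166.3 RPM in KO, 165.9 and 186.0 RPM in ΔcIDR, and 171.6 and 168.7 RPM in WT. Without the 7SL pair and the Y RNA pair the relative difference of the family was -0.09 ± 0.09 in KO against WT (adjusted p = 0.71) and 0.13 ± 0.09 in ΔcIDR against WT (adjusted p = 0.43), and 0.21 ± 0.09 in ΔcIDR against KO (adjusted p = 0.049). With the largest locus alone left out, srpRNA kept its relative calls, with -0.30 in KO against WT, 0.23 in ΔcIDR against WT and 0.53 in ΔcIDR against KO, where 7.84%, 11.8% and 31.4% of 51 families were called, and 23.5% in ΔcIDR against KO on the deposited scale. The next largest srpRNA locus, 214 bp at chr6:69493323-69493536, had 24.1 and 23.8 RPM in KO, 28.6 and 39.7 RPM in ΔcIDR, and 29.2 and 28.3 RPM in WT. It rose in ΔcIDR against KO by 1.22 on the deposited scale (adjusted p = 0.0018), and no other srpRNA locus of the 5 largest apart from the 7SL pair was called in any comparison.

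**Figure D2:**
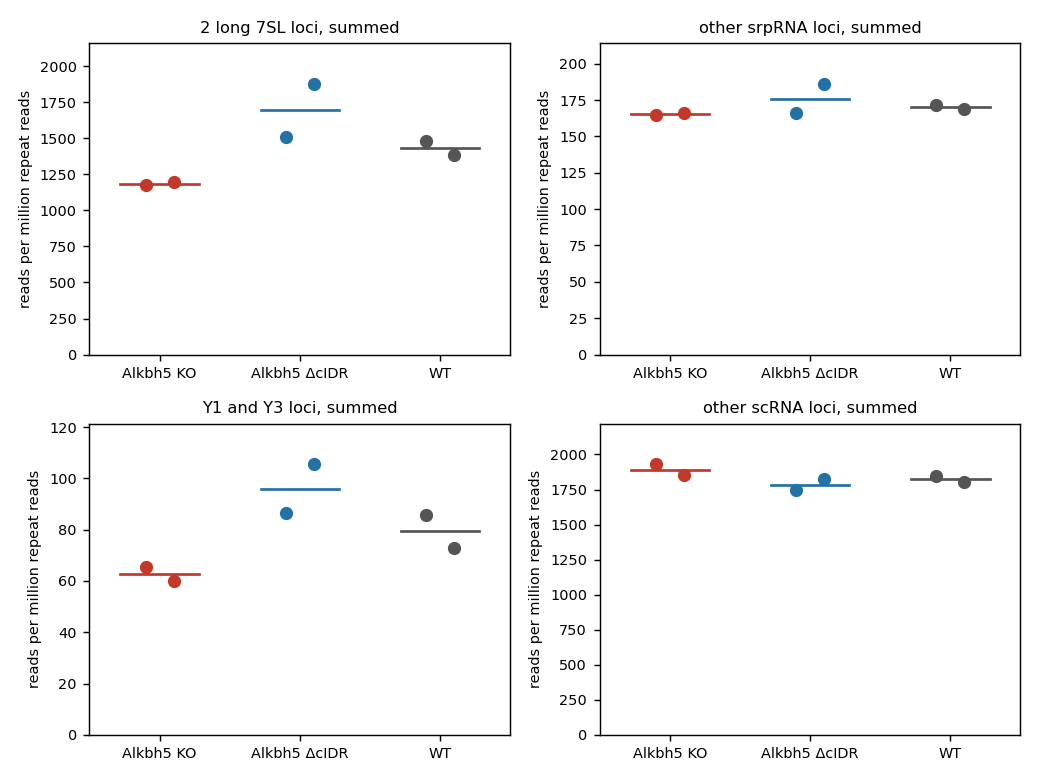
RPM, over repeat reads, summed over the 2 long 7SL loci, the other srpRNA loci, the Y1 and Y3 loci and the other scRNA loci, 1 point per library with a line at the mean. The 7SL pair averaged 1184 ± 13.6 in KO, 1693 ± 260 in ΔcIDR and 1432 ± 70.2 in WT, and the Y pair 62.8 ± 3.74 in KO, 95.9 ± 13.5 in ΔcIDR and 79.3 ± 8.97 in WT (SD, n = 2).

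The 2 scRNA loci with the most reads were the Y RNA genes Y3 and Y1, and the order of their group means was that of 7SL. They lie at chr6:47758558-47758658 (101 bp) and chr6:47765005-47765114 (110 bp), and RefSeq's Rny3 and Rny1 have lengths of 101 and 111 bp and starts 6446 bp apart, where the table's are 6447 bp apart. Y1 had 33.2 and 28.3 RPM in KO, 47.8 and 59.5 RPM in ΔcIDR, and 46.8 and 39.1 RPM in WT. Y3 had 32.2 and 31.8 RPM in KO, 38.5 and 46.0 RPM in ΔcIDR, and 38.9 and 33.9 RPM in WT. Both genes were lowest in the KO libraries, and Y3 overlapped between ΔcIDR and WT. Y1 fell by 0.52 ± 0.14 in KO against WT on the relative scale (adjusted p = 0.028), and Y3 differed by -0.23 ± 0.13 (adjusted p = 0.39). Both rose in ΔcIDR against KO, Y1 by 0.92 (adjusted p = 4.8e-05) and Y3 by 0.52 (adjusted p = 0.0095). On the deposited scale Y1 differed by -0.80 ± 0.31 in KO against WT (adjusted p = 0.16), so the KO call depends on the scale.

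The repeat loci around the Y genes were higher in KO than in WT, unlike the genes. The 13 tested repeat loci within 10 kb of Y1 differed by 0.40 (relative log2, summed) in KO against WT, and the 5 around Y3 by 0.60. The genes start 6447 bp apart, so these windows overlap and can share loci, and the results are not independent. Reads at Y1 were 1.05 and 0.94 times those of its neighbours in KO, 2.01 and 2.12 times in ΔcIDR, and 2.05 and 1.75 times in WT. At Y3 the ratio was 1.68 and 1.61 in KO, 2.36 and 2.39 in ΔcIDR, and 3.09 and 2.78 in WT. For both genes the KO ratios lay below those of every other library, and for Y3 the ΔcIDR ratios lay below WT as well. The neighbours lie on chromosome 6, where the median repeat locus was also higher in KO. The 3 and 4 neighbours of the 7SL loci held only 41 to 100 reads per library. In KO against WT they differed by -0.28 and -0.26 on the relative scale, against -0.28 and -0.36 for the 7SL loci themselves. Reads at the first 7SL locus were 231 and 221 times those of its neighbours in KO, 393 and 420 times in ΔcIDR, and 207 and 240 times in WT. At the second the ratio was 154 and 225 in KO, 160 and 223 in ΔcIDR, and 207 and 186 in WT. At both loci the KO ratios overlapped WT, so set against these few neighbouring reads the 7SL loci were not apart in KO. In ΔcIDR against KO the neighbours differed by -0.21 and 0.55, against 0.66 and 0.61 for the loci.

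The other 8346 scRNA loci summed to 1931 and 1850 RPM in KO, 1747.5 and 1821.8 RPM in ΔcIDR, and 1846 and 1807 RPM in WT. Both KO libraries lay just above both WT libraries, and ΔcIDR overlapped WT. As a whole family, scRNA differed by -0.01 ± 0.07 in KO against WT, 0.06 ± 0.07 in ΔcIDR against WT and 0.07 ± 0.07 in ΔcIDR against KO on the relative scale, with adjusted p of 0.93, 0.68 and 0.45. The largest locus held 2.19% of the family's reads, so no locus decides that sum. Among the 5 largest loci, chr4:11172479-11172578 (100 bp) had 13.3 and 8.14 RPM in KO, 18.9 and 28.7 RPM in ΔcIDR, and 25.2 and 18.9 RPM in WT. It was lower in both KO libraries than in every other library. In KO against WT it differed by -1.37 ± 0.32 on the deposited scale (adjusted p = 0.0029) and by -1.10 ± 0.20 on the relative scale (adjusted p = 0.0015), so it fell on both. The neighbours of this locus differed by -0.31 in the same direction. In ΔcIDR against KO the chr4:11172479 locus rose by 1.88 on the deposited scale (adjusted p = 7.0e-07) and by 1.27 on the relative scale (adjusted p = 1.0e-04). The remaining pair of the 5 largest, at chr4:119138599-119138667 and chr19:40539314-40539390, was not called in KO against WT on either scale. The chr4 locus of this pair rose in ΔcIDR against KO, by 1.30 deposited (adjusted p = 0.0010) and 0.69 relative (adjusted p = 0.0018). The chr19 locus was not called there on either scale.

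A regular run of scRNA loci stood beside the Y genes. Ahead of Y3, starting at position 47627696 of chromosome 6, there were 16 loci of 93 or 94 bp, most of them 4239 to 4360 bp apart, and 7 reached a mean of 10 reads. Together they had 13.1 and 10.0 RPM in KO, 9.4 and 11.2 RPM in ΔcIDR, and 6.5 and 8.1 RPM in WT, so KO lay above WT without overlap, as did ΔcIDR, but no test was made because the run was noticed in the data. Its locus chr6:47721072-47721165 held 105 and 6 reads in KO, 1 and 0 in ΔcIDR, and 0 and 5 in WT. Its lower level in ΔcIDR against KO (-3.06 ± 0.93, adjusted p = 0.0096) rests on the first KO library.

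The summed tRNA family was not called in any comparison on either scale. The family sum differed by 0.11 ± 0.07 in KO against WT, 0.16 ± 0.07 in ΔcIDR against WT and 0.05 ± 0.07 in ΔcIDR against KO on the relative scale (adjusted p = 0.43, 0.16 and 0.67), and the largest locus held only 2.56% of the reads. Nuclear loci were split after their values had been seen, so the sums that follow are descriptions without a test. The 457 loci with another tRNA locus within 10 kb had 300.6 and 267.0 RPM in KO, 221.2 and 280.9 RPM in ΔcIDR, and 224.9 and 187.1 RPM in WT. The 2289 isolated loci had 595.3 and 569.5 RPM in KO, 545.0 and 581.3 RPM in ΔcIDR, and 559.5 and 559.9 RPM in WT. Clustered loci were above WT in both KO libraries, with a relative difference of 0.42 ± 0.18, while the isolated ones differed by 0.01 ± 0.07, with KO still above WT in RPM. In ΔcIDR the clustered loci overlapped WT, at 0.36 ± 0.21.

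A large tRNA gene cluster of the mouse lies among the histone genes on chromosome 13. Its 115 loci between 21 and 24 Mb had 125.4 and 109.9 RPM in KO, 84.8 and 113.7 RPM in ΔcIDR, and 88.8 and 69.4 RPM in WT. The relative difference was 0.53 ± 0.22 in KO against WT and 0.40 ± 0.27 in ΔcIDR against WT. Of the 90 tested members of chromosome 13, 6 were called higher in KO against WT and 1 lower on the relative scale, where 1.62% of all tested loci were called higher and 2.61% lower. Clustered loci outside that stretch differed by 0.37 ± 0.16 in KO against WT, so the cluster did not make the difference alone. Loci of at least 70 bp, the length of a whole tRNA gene, differed by 0.29 ± 0.16 in KO against WT, and shorter ones by 0.00 ± 0.05.

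**Figure D3:**
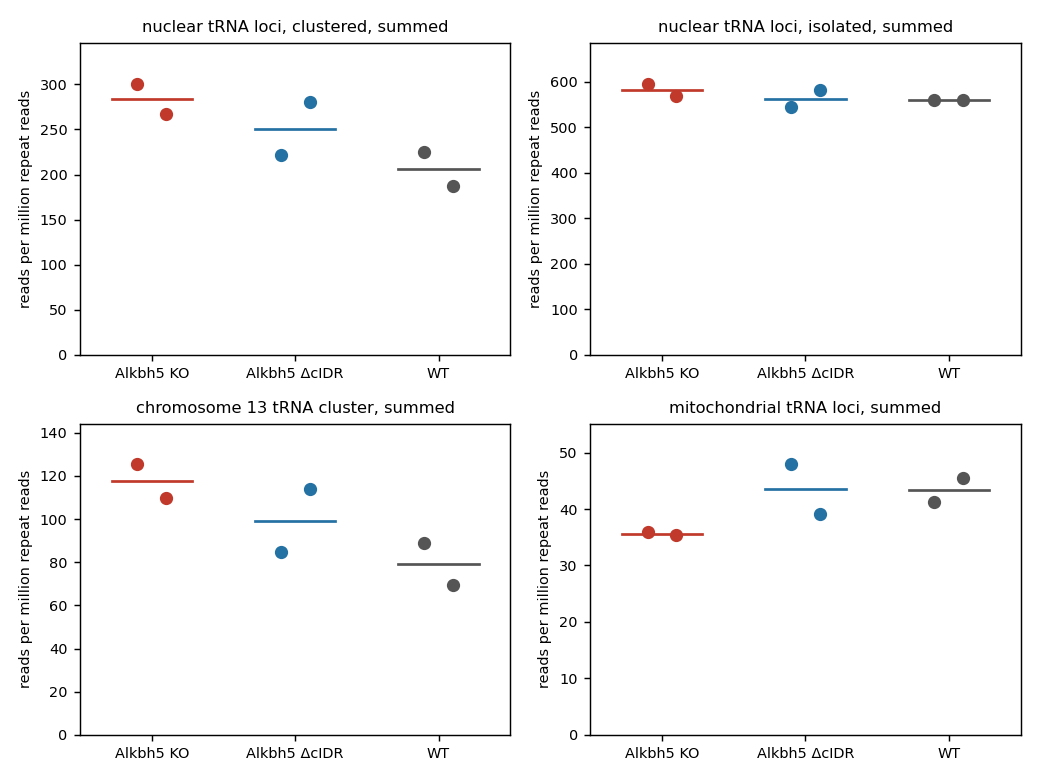
RPM, over repeat reads, summed over clustered nuclear tRNA loci (another within 10 kb), isolated ones, those of the chromosome 13 cluster and the 3 mitochondrial ones, 1 point per library with a line at the mean. Clustered loci averaged 283.8 ± 23.8 in KO, 251.0 ± 42.2 in ΔcIDR and 206.0 ± 26.8 in WT, and isolated loci 582.4 ± 18.3 in KO, 563.1 ± 25.7 in ΔcIDR and 559.7 ± 0.281 in WT (SD, n = 2).

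Summed, the mitochondrial tRNA loci were lower in both KO libraries than in every other library. There are 3 of them, at TrnL1, TrnQ and TrnS1 by RefSeq's names. Their sum was 35.9 and 35.4 RPM in KO, 47.9 and 39.2 RPM in ΔcIDR, and 41.3 and 45.6 RPM in WT. On the relative scale 1 of the 3 lay above 0 in KO against WT, and the median locus differed by -0.15. The lower sum therefore does not hold for each locus. TrnS1 (MT:6870-6938, a serine tRNA gene that overlaps the end of COX1, which encodes a subunit of cytochrome oxidase) had 15.4 and 15.8 RPM in KO, 30.1 and 19.8 RPM in ΔcIDR, and 22.3 and 29.9 RPM in WT. It fell by 1.04 ± 0.32 in KO against WT on the deposited scale (adjusted p = 0.044) and by 0.77 ± 0.17 on the relative scale (adjusted p = 0.0088). Reads of TrnS1 and of COX1 cannot be told apart here, since strand use is not stated. A 69 bp tRNA locus of chromosome 1, chr1:24654721-24654789, gave a like pattern, with 13.3 and 17.1 RPM in KO, 25.6 and 21.2 RPM in ΔcIDR, and 20.4 and 36.1 RPM in WT. It fell by 1.16 ± 0.32 in KO against WT (adjusted p = 0.017), and the single tested repeat locus within 10 kb held so few reads that the ratio per base was 492. Nuclear copies of mitochondrial DNA are known in the mouse, and whether this locus shares reads with the mitochondrion was not tested.

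The remaining 3 of the 5 largest tRNA loci showed no called difference. The locus chr2:20752600-20752653 had 27.0 and 23.4 RPM in KO, 19.2 and 20.8 RPM in ΔcIDR, and 19.5 and 20.8 RPM in WT. The locus chr12:86524489-86524554 had 24.9 and 26.0 RPM in KO, 20.1 and 22.1 RPM in ΔcIDR, and 19.6 and 17.8 RPM in WT, and chr14:20803997-20804035 had 13.9 to 16.6 RPM in all 6 libraries. The first 2 were higher in both KO libraries than in WT without passing the test on either scale (relative difference 0.27 and 0.40, adjusted p = 0.35 and 0.12).

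Nuclear rRNA loci were practically without reads. Of 1180 nuclear loci, 18 had any read and together they held 30 reads in all 6 libraries, and the 104 loci of chromosome 8 held 1. Ribosomal RNA had been depleted before sequencing, so no level of nuclear rRNA can be read here. The one tested rRNA locus lies in the mitochondrial 16S gene mt-Rnr2 (MT:2362-2540), which held 98.8% of the family's reads. It had 18.2 and 18.1 RPM in KO, 20.1 and 18.0 RPM in ΔcIDR, and 17.4 and 16.2 RPM in WT. It was not called in any comparison on either scale.

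In KO against WT, 23 of the 1445 tested loci passed the test on the deposited scale, 2 higher and 21 lower, or 1.59%. Over all 390465 tested repeat loci 2.59% were called, 0.19% higher and 2.4% lower, so the members' share is near the background. The median member differed by -0.23 (log2), against -0.28 for all tested loci. On the relative scale 31 members were higher and 24 lower, 3.81% in all, against 1.62% higher, 2.61% lower and 4.23% in either direction over all loci, and 19 loci were called on both scales with the same sign. Of the 31, 18 were tRNA loci, 4.25% of the 424 tested, and 7 tRNA loci were lower. The relative median of tRNA loci was 0.11 in KO against WT, of srpRNA -0.06 and of scRNA 0.02.

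The 2 loci called higher on the deposited scale were both tRNA loci of few reads. The 106 bp locus chr13:21357007-21357112 in the chromosome 13 cluster had 31 and 29 reads in KO, 4 and 18 in ΔcIDR, and 4 and 0 in WT (2.72 ± 0.66, adjusted p = 0.0044), and chr11:61298741-61298813 (73 bp) had 36 and 31 in KO, 30 and 23 in ΔcIDR, and 0 and 16 in WT (2.05 ± 0.50, adjusted p = 0.0056). In the second the WT libraries differed widely. The 5 lower loci with the largest differences were scRNA loci, and all had fewer than 60 reads in any library. At chr13:53059901-53059969 there were 10 and 9 reads in KO, 35 and 23 in ΔcIDR, and 54 and 31 in WT, a difference of -2.28 ± 0.46 in KO against WT (adjusted p = 2.3e-04), and its neighbours differed by -1.14 on the relative scale. At chr5:113706479-113706564 there were 23 and 4 reads in KO, 35 and 34 in ΔcIDR, and 32 and 53 in WT, a difference of -2.15 ± 0.45 (adjusted p = 4.7e-04). The remaining 3, on chromosomes 4, 6 and 7, differed by -2.27 to -2.04.

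In ΔcIDR against WT, 1 member locus was called on the deposited scale, the tRNA locus chr11:61298741-61298813 (higher by 2.61 ± 0.50, adjusted p = 0.0013), where 0.0763% of all loci were called. On the relative scale 0 members were called by limma, against 0.168% of all loci, and 133 of the 1445 members had an unadjusted p under 0.05, as had 38466 of all 390465 tested loci, a like share. The edgeR test on whole reads gave 0 calls on the deposited scale and with TMM factors, and DESeq2 gave 1. The median member differed by 0.03 on the relative scale, and by 0.36 on the deposited scale, against 0.33 for all tested loci.

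In ΔcIDR against KO, 253 members were called higher and 11 lower on the deposited scale, or 18.3%, where 20.3% of all tested loci were called, 19.5% higher and 0.791% lower. On the relative scale 70 were higher and 71 lower, or 9.76%, where 6.84% of all loci were higher, 5.65% lower and 12.5% called in either direction. Both shares lie near or under the background. The relative median of srpRNA loci was 0.19, of tRNA loci -0.06 and of scRNA loci -0.02. The named locus with the lowest p was a tRNA locus of 83 bp, chr7:120434701-120434783, with 81 and 107 reads in ΔcIDR, 38 and 22 in KO, and 90 and 64 in WT. It rose by 2.51 ± 0.39 in ΔcIDR against KO (adjusted p = 2.7e-08) and fell by 1.78 ± 0.39 in KO against WT (adjusted p = 0.0011). Its neighbours within 10 kb differed by 0.09 in KO against WT on the relative scale. The ΔcIDR and WT libraries overlapped in reads and on the relative scale, but not on the deposited scale. Among the lower loci named here, the one with the most reads was an scRNA locus of 106 bp, chr2:152188696-152188801, with 15 and 19 reads in ΔcIDR, 108 and 117 in KO, and 40 and 30 in WT. It fell by 1.70 ± 0.41 in ΔcIDR against KO (adjusted p = 9.2e-04), and on the relative scale it differed by -2.30 and its neighbours by -1.71. In KO against WT it rose by 1.43 ± 0.30 on the relative scale (adjusted p = 0.0045). The other 4 higher loci with the largest differences rose by 2.33 to 3.05, and each had at most 53 reads in any library. At the scRNA locus chr16:7758792-7758880 there were 21 and 33 reads in ΔcIDR, 7 and 1 in KO, and 11 and 25 in WT, and on the relative scale the locus differed by 2.44 and its neighbours by 2.83. The remaining 3 lower loci, tRNA loci of chromosomes 2 and 14 and an scRNA locus of chromosome 16, fell, with differences of -1.93 to -1.61, apart from the one in the run of scRNA loci beside Y3.

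Most member loci had a difference of the same sign as the repeats around them. For 1298 loci with at least 3 tested repeat loci within 10 kb, the relative difference of the locus and that of its neighbours' sum correlated across loci with a Pearson r of 0.60 in KO against WT, 0.32 in ΔcIDR against WT and 0.65 in ΔcIDR against KO. The points share libraries and depth, so this is a description across loci, which are not independent replicates. The sign was the same in 70.6%, 59.4% and 70.03% of these loci. Reads per base at the locus were a median of 1.43 times those of the neighbours, and 114 loci reached 5 times. The srpRNA loci had an r of 0.71 in KO against WT and tRNA loci 0.48. The 7SL and Y genes had 29.8 to 401 times the density of their neighbours, and the Y genes and the chromosome 7 tRNA locus differed in sign from their neighbours in KO against WT. The 7SL loci had the same sign as their neighbours there, and the first of them nearly the same size.

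**Figure D4:**
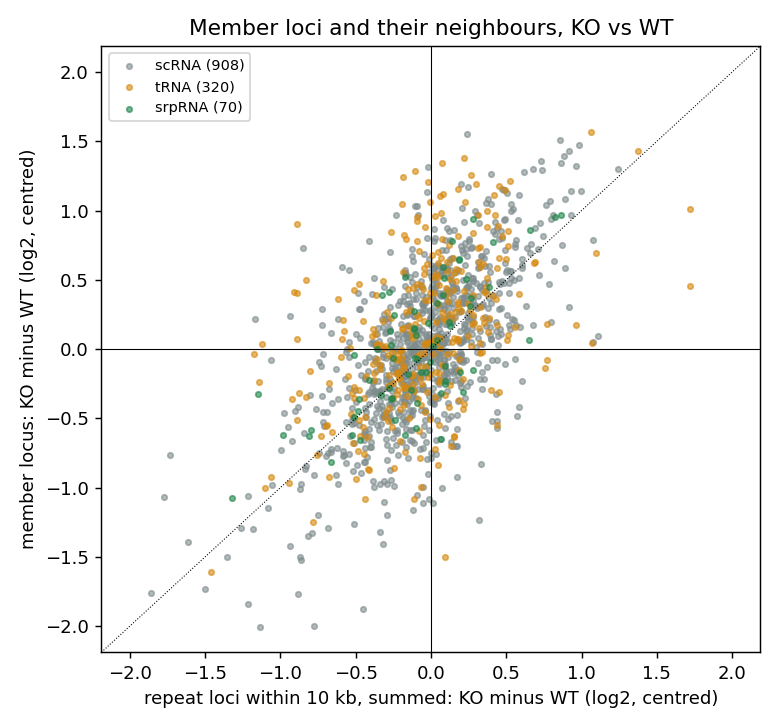
Relative log2 difference, KO minus WT, of each member locus against that of the summed repeat loci within 10 kb, for 908 scRNA, 320 tRNA and 70 srpRNA loci with at least 3 neighbours, with the line of equality dotted. The points rise along the line (Pearson r of 0.60 across loci, which are not independent).

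On the chromosomes where repeat loci were higher in KO, so were the members. In KO against WT the relative median of members was 0.31 on chromosome 6, 0.39 on chromosome 8 and 0.35 on the first 60.9 Mb of chromosome 11, where the medians of all other tested repeat loci were 0.32, 0.28 and 0.32. On chromosome 13 members stood at 0.24 and other loci at -0.08, and this is the chromosome with the large tRNA cluster. A like gap stood there in ΔcIDR against WT, with members at 0.28 and other loci at -0.01. In ΔcIDR against KO the members of chromosomes 6 and 8 and the first 60.9 Mb of 11 had medians of -0.41, -0.50 and -0.49, against -0.48, -0.48 and -0.35 for the other loci. Whether a difference in gene copies between the lines takes part in these values was not tested.

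**Figure D5:**
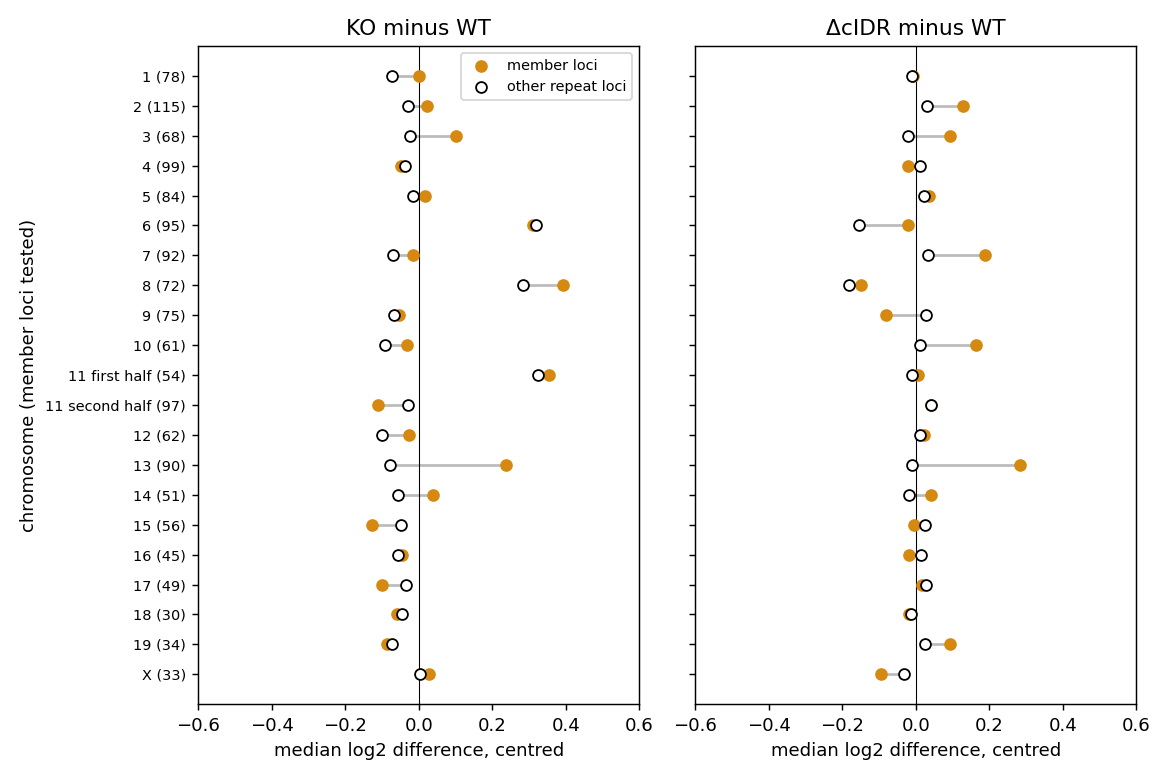
Median relative log2 difference of member loci (filled) and of all other tested repeat loci (open) on each chromosome, KO minus WT on the left and ΔcIDR minus WT on the right, with the number of tested members beside each chromosome. In KO members and other loci are both higher on chromosomes 6 and 8 and the first 60.9 Mb of 11, and on chromosome 13 members stand at 0.24 and other loci at -0.08.

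Few members lay in intervals of the deposited interval table. Of all loci, 8 tRNA, 1 srpRNA, 34 scRNA and 1 rRNA overlapped an interval by at least 1 base, and 18 of the 1445 tested loci did. Neither 7SL locus nor a Y gene was among them. The 18 loci had a relative median of -0.15 in KO against WT and 0.17 in ΔcIDR against WT, where other tested members had 0.05 and 0.02. In ΔcIDR against KO the relative median of the 18 was 0.29, against -0.03 for the other members, and on the deposited scale 8 were called higher and 0 lower, where 19.5% of all tested loci were called higher and 0.791% lower. Of the 18, 1 was called in KO against WT on the deposited scale, where 2.59% of all tested loci were, and it was named after its values were seen. This scRNA locus, chr14:56616017-56616125, had 18 and 13 reads in KO, 46 and 25 in ΔcIDR, and 45 and 33 in WT, a difference of -1.64 ± 0.44 in KO against WT (adjusted p = 0.015). The signal of its 376 bp interval was 5.64 and 3.21 in KO, 20.6 and 20.9 in ΔcIDR, and 16.1 and 15.4 in WT. The locus lies inside that interval and both were measured in the same libraries, so the interval is not separate evidence.

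None of the SINE families listed here, B1, SINE/7SL, B2, B4, ID and MIR, was called in any comparison on the deposited or the relative scale. The other SINE families are not given here. On the relative scale B1 (listed as Alu) differed by -0.01 ± 0.05 in KO against WT and 0.08 ± 0.05 in ΔcIDR against WT, and the SINE/7SL family, added to the list after family names were seen, by 0.00 ± 0.06 and 0.07 ± 0.06. B2, B4, ID and MIR differed by -0.04 to 0.02 in KO against WT and by 0.04 to 0.08 in ΔcIDR against WT. The snRNA family, whose largest locus held 15.3% of its reads, was called higher in ΔcIDR by limma on the relative scale. The difference was 0.28 ± 0.06 against WT (adjusted p = 6.1e-04) and 0.33 ± 0.06 against KO. In KO against WT the family differed by -0.04 ± 0.06 on that scale. On the deposited scale the same test gave 0.62 ± 0.30 in ΔcIDR against WT (adjusted p = 0.43), which was not called. Against KO it gave 0.93 ± 0.30 (adjusted p = 0.019). Per ERCC read, both ΔcIDR libraries lay below both KO libraries. ΔcIDR replicate 1 lay below both WT libraries and replicate 2 between them. The direction of the snRNA difference therefore depends on the scale.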

How the data were processed

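A table of repeat loci and a table of m6A intervals were used, both of the whole series and with 6 columns each, 2 per group. Both hold signal that the authors scaled per library by a spike-in before they deposited it. RNA of the chromatin fraction was depleted of ribosomal RNA, given an m6A spike-in, fragmented and enriched with an m6A antibody, and stranded libraries were made, per the labels' protocols. Reads were handled with HISAT2, featureCounts, MACS2, bedtools, Picard, SAMtools and fastp on GRCm39, per the submitters' processing notes, which give no versions; strand use and the handling of multiply mapped reads are not given in the sources used here.

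Reads were recovered as a value divided by the smallest nonzero value of its column, and 100% of the repeat table's values came out whole (tolerance 1e-06). Members and lists were chosen with earlier results of these data known. limma 3.58.1 (R 4.3.3, trend) was fitted to log2(signal + 5) over all 390465 loci with a mean of at least 10 reads, and to the sums of 52 families with at least 100, with Benjamini-Hochberg adjustment and a threshold of 0.05. A log2 difference with the pseudocount of 5 understates changes of low loci. Family sums use every locus; sums over sets of loci carry an SE from the 2 libraries per group and no test. The intervals' signal was described only. edgeR 4.0.16 and DESeq2 1.42.0 were alternatives on the whole reads. The fits were also run with other scalings, pseudocounts, filters, left-out libraries and a replicate block. Named loci were the 5 with the most reads per family and, per comparison, up to 5 called in each direction with the largest differences whose libraries do not overlap. The limma script was tested on simulated data. Python 3.11.15, pandas 2.3.3 and matplotlib 3.10.9 were used besides. Same-numbered libraries did not deviate together (r of 0.04, -0.12 and -0.04 between pairs of groups).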

Additional observations from a re-analysis of the deposited data

How the results depend on the processing

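Member loci called on the deposited scale numbered 23 in KO against WT, 1 in ΔcIDR against WT and 264 in ΔcIDR against KO, and these counts depend on the scaling. In the same order of comparisons they were 55, 0 and 141 after centring, 65, 0 and 148 when scaled by total repeat reads, 62, 6 and 251 by ERCC reads, and 0, 0 and 2 by the unmodified spike-in. With every locus of nonzero signal tested they were 0, 0 and 11. edgeR gave 22, 0 and 237 on the deposited scale and 69, 0 and 149 with TMM factors, and DESeq2 17, 1 and 52. Centring on loci outside chromosomes 6 and 8 and the start of 11, added after seeing the data, gave 59, 0 and 148. Leaving out each library in turn, without centring or with it, gave 2 to 136 loci in KO against WT. It gave 0 to 29 in ΔcIDR against WT and 33 to 490 in ΔcIDR against KO. The runs with centring were added after seeing the data.

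With the replicate block the counts were 17, 1 and 207, and with the block after centring, added later, 40, 0 and 124; replicate numbers do not pair the libraries. Under the block no member family was called in ΔcIDR against KO once largest loci were left out (0, against 1 without the block), and after centring with the block 1 was called in KO against WT, with and without largest loci.

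Among the 4 family sums, 0, 0 and 1 were called on the deposited scale, with and without largest loci. After centring, and after centring outside those chromosomes, 1 was called in each comparison. ERCC scaling called 3, 2 and 3 (3, 2 and 2 without largest loci), and the unmodified spike-in 0 in each. Without those chromosomes 4 were called in ΔcIDR against KO. Leaving out libraries gave 0 to 4 in each comparison, and 0 to 3 without largest loci.

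Some sums that were not called on the deposited scale changed sign. In KO against WT, tRNA, scRNA and rRNA stood at 0.16, 0.035 and 0.11 by total repeat reads, 0.24, 0.12 and 0.19 by ERCC reads, and 0.16, 0.038 and 0.11 after centring outside those chromosomes. tRNA and rRNA stood at 0.11 and 0.063 after centring, with or without the block or the 7SL and Y loci (scRNA then 0.0037), and at 0.053 and 0.0039 by the unmodified spike-in. In ΔcIDR against WT, tRNA, srpRNA, scRNA and rRNA stood at -0.16, -0.028, -0.26 and -0.073 by ERCC reads and at -0.69, -0.55, -0.79 and -0.60 by the unmodified spike-in, srpRNA without its largest locus at -0.097 and -0.62, and scRNA at -0.020 by total repeat reads. In ΔcIDR against KO, tRNA, scRNA and rRNA stood at -0.40, -0.38 and -0.26 by ERCC reads, tRNA and scRNA at -0.073 and -0.055 by total repeat reads, and tRNA, srpRNA, scRNA and rRNA at -0.74, -0.20, -0.72 and -0.60 by the unmodified spike-in (srpRNA without its largest locus -0.26). On that last scale 7 named loci called in ΔcIDR against KO also turned, the 7SL pair to -0.13 and -0.18, Y3 to -0.27, and those at chr6:69493323, chr4:119138599, chr1:24654721 and TrnS1 to -0.17, -0.092, -0.038 and -0.021. Leaving out libraries gave -0.52 to 0.19 for tRNA, -0.62 to 0.057 for scRNA and -0.52 to 0.12 for rRNA in KO against WT, and -0.032 to 1.01 for tRNA in ΔcIDR against KO. The cause was not tested. Spike-in counts of 814 to 1870 reads, 2 libraries per group and loci near 10 reads limit the precision.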
